A study of Homo sapiens with 12 samples.

Results

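Replication-dependent histone genes encode the bulk of the linker histone H1 and of the core histones H2A, H2B, H3 and H4 that package newly copied DNA. They were taken from the deposited count table as every gene symbol of the 4 histone clusters (HIST1 to HIST4) that names one of these classes, leaving out symbols that end in PS and a digit. This gave 76 of the 54261 genes in the table: 6 H1, 17 H2A, 23 H2B, 15 H3 and 15 H4 genes. HIST1, on chromosome 6, held 55 of them, HIST2 and HIST3, on chromosome 1, held 16 and 4, and HIST4, on chromosome 12, held 1. All 76 matched GENCODE release 29 (GRCh38) by symbol, and 70 of them are annotated there as coding and the others as pseudogenes.

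RNA was sequenced from cells labelled SW480 and DLD1, which are established cell lines of human colorectal cancer, each grown without lactate (control) or with it. Each of the 4 groups had 3 libraries, which the design text calls biological replicates. The labels give no dose and no time of treatment, and both lines are unmodified as far as the labels say. Lactate, the end product of glycolysis, is released and taken up by tumour cells.

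Most messenger RNAs end in a poly(A) tail. Replication-dependent histone messenger RNAs end instead in a short stem-loop that the stem-loop binding protein SLBP holds, and they are made in S phase, when the coactivator NPAT switches the clusters on. A few of these genes can also make longer, polyadenylated transcripts that run past the stem-loop, above all in cells that stop dividing. Libraries built on poly(A) RNA see only that second kind, and whether these libraries were selected for poly(A) is not given in the sources used here.

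The stem-loop is shown because it marks the end that most of these messages have. A search of the GENCODE transcripts found this element of 16 bases in 34 of the 76 genes, in 5 forms that differ by class. The loop is in capitals.
H2A, H2B and H3 genes (18 genes, among them HIST3H2A and HIST1H2AC): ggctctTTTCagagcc
H4 genes (5 genes, among them HIST1H4H): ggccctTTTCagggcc
H2B and H3 genes (5 genes, among them HIST1H2BD and HIST1H2BC): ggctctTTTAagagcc
H4 genes (3 genes, among them HIST2H4A): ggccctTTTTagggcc
H2A and H2B genes (3 genes, among them HIST1H2AG): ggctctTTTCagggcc
No match was found in HIST1H1C or HIST1H2BK, whose transcripts in this annotation are 642 and 381 bases long. A missing match says only that these letters are not in the annotated transcript.

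The histone genes took few reads. They held 28572 of 207418640 counts, or 0.0138%, and the median gene held 32 reads over the 12 libraries. HIST1H1C, which encodes linker histone H1.2, held 10077 reads, and HIST1H2BK, an H2B gene, held 9395. Together they made 68.2% of all histone reads. The next was HIST3H2A, an H2A gene, with 1649. A total of 5 genes (HIST1H2BA, HIST1H4L, HIST2H3A, HIST2H3DP1 and HIST3H3) had 0 reads in every library, which allows a level of up to 0.0145 CPM (counts scaled to the library total) over all libraries, for counting error only.

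**Figure D1:**
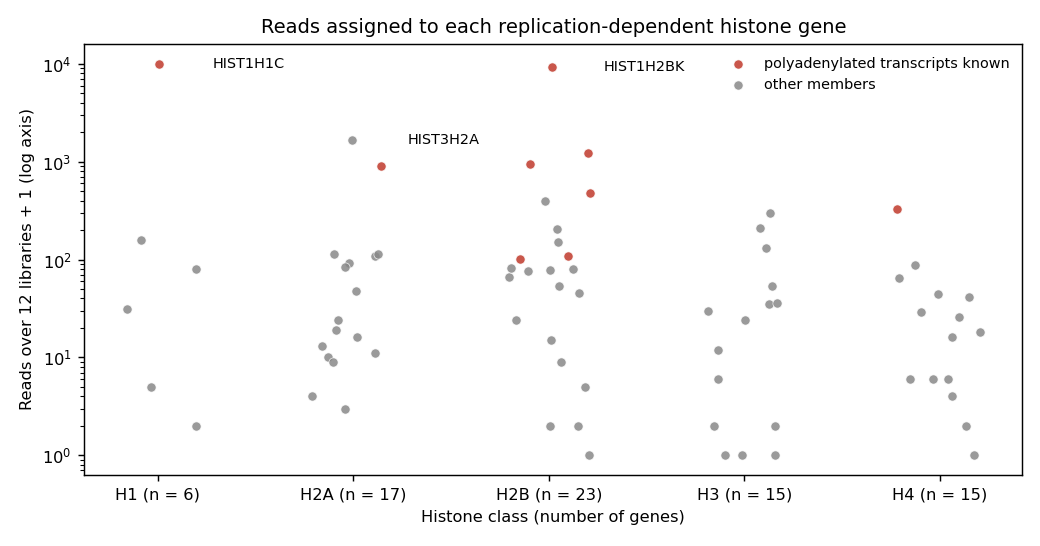
Reads assigned to each histone gene, summed over 12 libraries, plus 1 (vertical log axis), by histone class (horizontal axis). Red points are the 9 genes known to make polyadenylated transcripts. HIST1H1C (10077 reads) and HIST1H2BK (9395 reads) stand above the rest.

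A list of 9 histone genes known to make polyadenylated transcripts held 82.4% of the histone reads. Its median was 902 reads, against 23 for the other 67 genes. HIST3H2A, outside this list, has an annotated transcript that runs 390 bases past its stem-loop. Genes whose annotated transcripts run at least 300 bases past the stem-loop or have more than 1 exon numbered 29, with a median of 79 reads, against 17 reads in the other 47. HIST1H1C and HIST1H2BK are among those 47. These medians are of raw reads, which grow with transcript length. Annotated exon length ran from 567 to 6440 bases in the 29 genes and from 297 to 1294 in the 47. The medians of the 29 and the 47 therefore do not compare their levels. RNAs without a poly(A) tail were low as well: RN7SK, a small nuclear RNA that is abundant in most cells, lay between 3.17 and 15.0 CPM. What the library preparation contributes to these levels was not tested.

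Levels between genes were compared per kilobase of annotated exon, as the mean CPM over 12 libraries. HIST1H2BK reached 121 CPM per kb and HIST1H1C 80.4, followed by HIST3H2A at 9.65 and HIST1H2BD, an H2B gene, at 7.06. Reads past an annotated end would raise these values. Many of these genes sit back to back with another histone gene, and 14 such pairs had starts within 1 kb. The 2 genes of a pair could be far apart in level: HIST1H2BK stood at 121 CPM per kb and its neighbour HIST1H2AH, 331 bases away, at 0.26. HIST3H2A stood at 9.65 and HIST3H2BB, 234 bases away, at 0.174. HIST1H2BC and HIST1H2AC, 219 bases apart, were close, at 2.83 and 2.72.

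Many histone genes are near copies of each other, so reads that fit several of them may be split or lost in counting. HIST2H2AA3 and HIST2H2AA4 held 9 and 8 reads. Some also overlap another gene, and whether counting used strand is not given in the sources used here. Among them, HIST1H2BN overlaps HIST1H2AK and HIST1H2AL, and HIST2H2BC overlaps HIST2H2BD. HIST1H2BD overlaps LARP1P1 and AL353759.1, and HIST2H2BF overlaps AC243772.2 and FCGR1A. The values of these histone genes are uncertain.

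Of the 76 genes, 26 passed the filter on low counts and were tested: 3 H1, 6 H2A, 12 H2B, 3 H3 and 2 H4 genes. HIST2H2BC and HIST2H2BD, among these H2B genes, are annotated as pseudogenes. The 50 others held 1002 reads, 3.51% of the histone total. Below, a gene rose or fell only where the adjusted p of edgeR's quasi-likelihood test, over 17572 genes, was under 0.05. Levels are CPM scaled by TMM, a factor that corrects for library composition.

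Some libraries need a word first. Library totals ran from 12302311 to 22662063 counts. DLD1 controls 2 and 3 lay furthest from their group, with an SD of log2 differences of 0.499 and 0.411, against 0.171 to 0.242 in the other 10 libraries. Those differences followed GC content, with Spearman's rho of -0.78 and 0.81 across 12394 genes, which are not independent. Other libraries had weaker trends of this kind. The rho was 0.48, 0.33 and -0.59 in SW480 lactate 1, 2 and 3, and -0.5 and 0.44 in DLD1 lactate 2 and 3. In the libraries labelled SW480, the epithelial markers EPCAM and CDH1 were near absent. EPCAM stood at 0.988 ± 0.189 CPM (SD, n = 3) in controls, against 687 ± 18.5 in DLD1 controls, and CDH1 at 1.48 ± 0.133 against 680 ± 50.6. The epithelial keratins KRT8, KRT18 and KRT19 were present in SW480 controls, at 1348, 756 and 98.2 CPM. Of fibroblast genes, DCN stood there at 83.2 CPM, COL1A1 between 19.5 and 23.5 CPM and COL1A2 between 0.712 and 1.31 CPM. The levels of EPCAM, CDH1 and DCN go against the label of an epithelial line and those of the keratins do not, so the identity of the cells labelled SW480 is in doubt. That doubt touches every SW480 value and the comparison of the lines below.

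In SW480, lactate was followed by a rise of 2 histone genes, HIST1H1C and HIST3H2A. None fell. These are 2 of 26 tested genes, while 12.4% of all genes tested were called, 6.83% higher and 5.59% lower, so the share of histone genes called was no larger than that of genes at large. The median log2 fold change was 0.26 over the 26 genes and -0.01 over all genes. The groups did not overlap for 7 genes that were higher and 3 that were lower, while 20.6% and 20.4% of all genes did so. Beside these changes, of 9 tested epithelial markers 1 rose (KRT19) and 2 fell (KRT8 and KRT18). Of 4 tested markers of other cell types 2 rose, CD68 from 40.6 to 99.5 CPM and COL1A1 from 21.6 to 50.8 CPM. The other fibroblast markers were not called: COL1A2 stood at 0.953 and 0.765 CPM and DCN at 83.2 and 68.2 CPM. Their part in the result was not tested.

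HIST1H1C lies at chr6:26055787-26056428 on the minus strand of GRCh38 (ENSG00000187837.3, 1 exon). Its level was 60.8, 66.1 and 58.7 CPM in SW480 controls and 99.7, 117 and 92.9 CPM after lactate. Every lactate library lay above every control. The log2 fold change was 0.74 ± 0.13 (SE), with an adjusted p of 0.00257 by edgeR's quasi-likelihood test. In DLD1 the controls held 24.8, 17.3 and 20.7 CPM and the lactate libraries 19.1, 22.2 and 19.9, which overlap. The log2 fold change there was -0.04 ± 0.14, with an adjusted p of 0.9 in edgeR.

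HIST3H2A lies at chr1:228456979-228457873 on the minus strand (ENSG00000181218.5, 1 exon). It stood at 10.8, 11.7 and 13.9 CPM in SW480 controls and at 18.3, 22.6 and 17.1 CPM after lactate, again without overlap. Its log2 fold change was 0.67 ± 0.16, with an adjusted p of 0.0159 in edgeR. Leaving out 1 library could end the call: the adjusted p in edgeR was 0.104 without SW480 control 1, 0.0545 without control 2 and 0.102 without lactate 2. In DLD1 its levels were 1.51, 1.26 and 1.76 CPM in controls and 1.68, 1.23 and 1.76 CPM after lactate, with a log2 fold change of 0.03 ± 0.23.

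**Figure D2:**
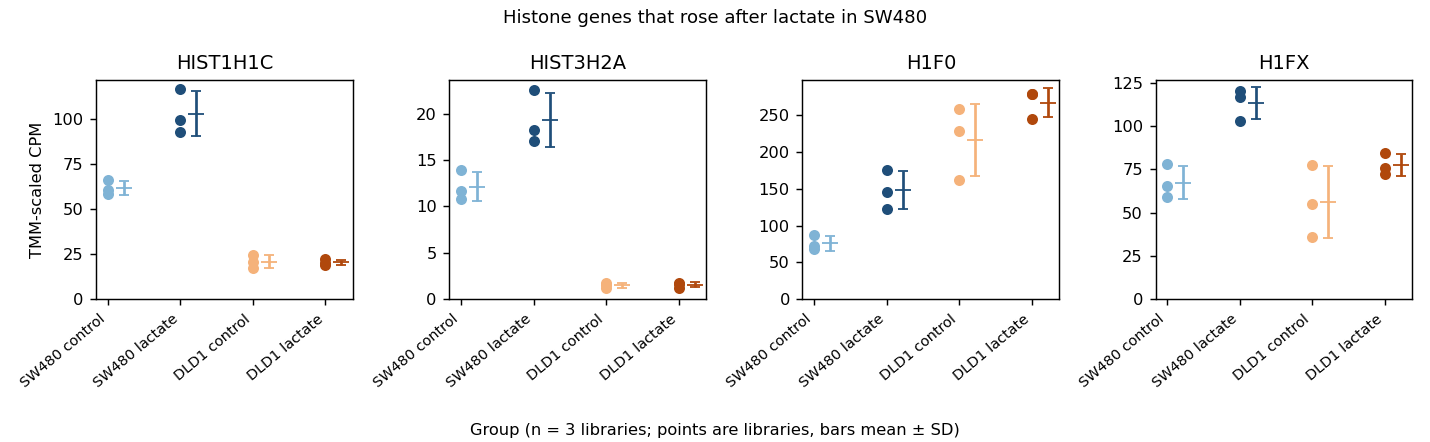
Levels (vertical axis, TMM-scaled CPM, from 0) of HIST1H1C, HIST3H2A and the replication-independent linker histones H1F0 and H1FX by group (horizontal axis). Points are libraries and bars are the mean ± SD of 3 libraries. In SW480 the lactate libraries of all 4 genes lie above the controls.

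The promoters of both genes are shown because these were the histone genes that rose. Each is 300 bases of RefSeq sequence (GRCh38.p14) around the start, read along the gene's strand. Capitals mark motifs searched on both strands: the box with the letters CCAAT, the motif TATAAA, the octamer ATTTGCAT known from H2A and H2B promoters, and AAACACA, known as the H1 box. In the 65 promoters, 4 matches overlapped another.
HIST1H1C, chr6:26056421-26056720: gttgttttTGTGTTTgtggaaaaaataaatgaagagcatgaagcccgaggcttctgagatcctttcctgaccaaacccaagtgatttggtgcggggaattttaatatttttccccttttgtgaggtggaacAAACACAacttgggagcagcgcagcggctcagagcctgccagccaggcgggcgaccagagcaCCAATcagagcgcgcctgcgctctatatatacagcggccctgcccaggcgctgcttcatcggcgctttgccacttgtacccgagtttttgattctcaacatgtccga
HIST3H2A, chr1:228457824-228458123: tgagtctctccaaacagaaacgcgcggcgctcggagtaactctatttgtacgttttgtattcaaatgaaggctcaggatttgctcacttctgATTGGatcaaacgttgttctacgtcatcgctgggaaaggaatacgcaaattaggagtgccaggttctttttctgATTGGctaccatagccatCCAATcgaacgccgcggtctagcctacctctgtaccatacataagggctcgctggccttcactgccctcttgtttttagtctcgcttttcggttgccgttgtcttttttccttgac
Of the 76 genes, 65 had a RefSeq promoter. The H1 box was found in 6 of 6 H1 promoters and in 5.74% of 27240 other promoters. The octamer was found in 11 of 16 H2A and 14 of 18 H2B promoters, against 1.71% of the others. HIST3H2A is an H2A promoter without that exact octamer, and it holds the CCAAT box 3 times. The CCAAT box was in 55 of 65 histone promoters and in 35.6% of the others. A match is a description of the letters and not a sign that a factor binds there.

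Among the H1 genes, HIST1H1E, which encodes H1.4, had a larger but less precise log2 difference in SW480, of 1.20 ± 0.44. It stood at 0.592, 0.75 and 0.771 CPM in controls and 0.985, 1.8 and 2.09 CPM after lactate. Its adjusted p was 0.0897 in edgeR, and it was called when SW480 was fitted alone (0.0229) and with the trends along GC content and length both removed (0.0316). It was also called without DLD1 control 2 (0.0377). Without DLD1 controls 2 and 3 the log2 difference was 1.20. HIST1H1E was not called in 17 of 21 alternatives, with adjusted p up to 0.283 in edgeR, DESeq2 or limma-voom. HIST1H1D, which encodes H1.3, had a log2 difference of 0.82 ± 0.52.

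In the H2A class, HIST1H2AC stood at 8.02, 7.58 and 7.42 CPM in SW480 controls and 4.14, 7.27 and 3.97 CPM after lactate. The highest lactate library lay just under the lowest control. The log2 difference was -0.57 ± 0.24 with an adjusted p of 0.137 in edgeR, and without SW480 lactate 2 it was -0.90 with an adjusted p of 0.0424. In 21 of 22 alternatives it was not called, with adjusted p up to 0.397 in edgeR, DESeq2 or limma-voom. In DLD1 the same gene stood at 2.54, 1.85 and 1.96 CPM in controls and 3.83, 2.42 and 3.39 CPM after lactate, a log2 difference of 0.59 ± 0.26 that was not called (adjusted p = 0.256 in edgeR).

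The H2B class has 4 of the 7 genes with at least 10 reads in every library. HIST1H2BK stood at 63.9, 56.5 and 66.6 CPM in SW480 controls and 60.1, 55.9 and 44.0 CPM after lactate, which overlap. Its log2 difference was -0.22 ± 0.17 in SW480 and -0.18 ± 0.17 in DLD1, neither called. HIST1H2BD, HIST1H2BC and HIST2H2BE, all on the polyadenylated list, had log2 differences of 0.32 ± 0.18, 0.17 ± 0.26 and 0.30 ± 0.18 in SW480, none called. HIST2H2BF was at 0.01 ± 0.43.

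**Figure D3:**
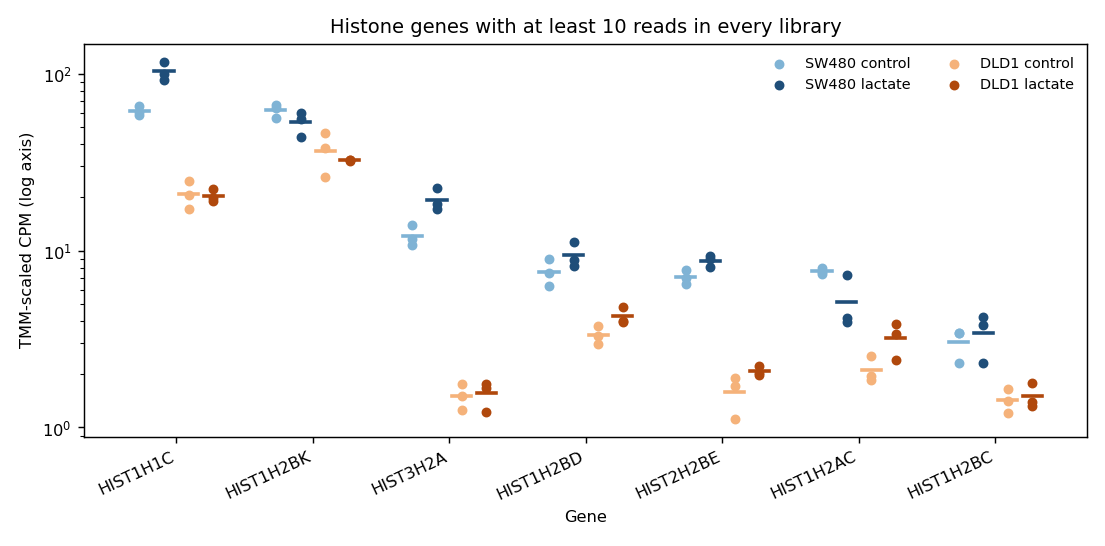
Levels (vertical log axis, TMM-scaled CPM) of the 7 histone genes with at least 10 reads in every library (horizontal axis), by group. Points are libraries and short lines are group means. For all 7 genes the DLD1 controls lie below the SW480 controls. The share of all genes for which this holds was not counted. By the edgeR test, 37.3% of all genes tested were called lower in DLD1 controls.

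The H3 and H4 genes had few reads. HIST1H3H, an H3 gene, stood at 2.96, 2.58 and 2.91 CPM in SW480 controls and 2.23, 1.97 and 1.95 CPM after lactate. Its log2 difference was -0.46 ± 0.23 in SW480 and 0.80 ± 0.30 in DLD1, neither called. HIST1H3E was at -0.44 ± 0.43 and 0.50 ± 0.45. Of the H4 genes, HIST1H4H was at -0.54 ± 0.36 and 0.67 ± 0.56, and HIST1H4E at -0.88 ± 0.50 and 0.84 ± 0.54. The other 12 tested histone genes, none called, ran from -0.89 (HIST2H2AC) to 0.92 (HIST3H2BB) in SW480 and from -0.86 (HIST1H2BG) to 1.52 (HIST1H2AE) in DLD1.

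**Figure D4:**
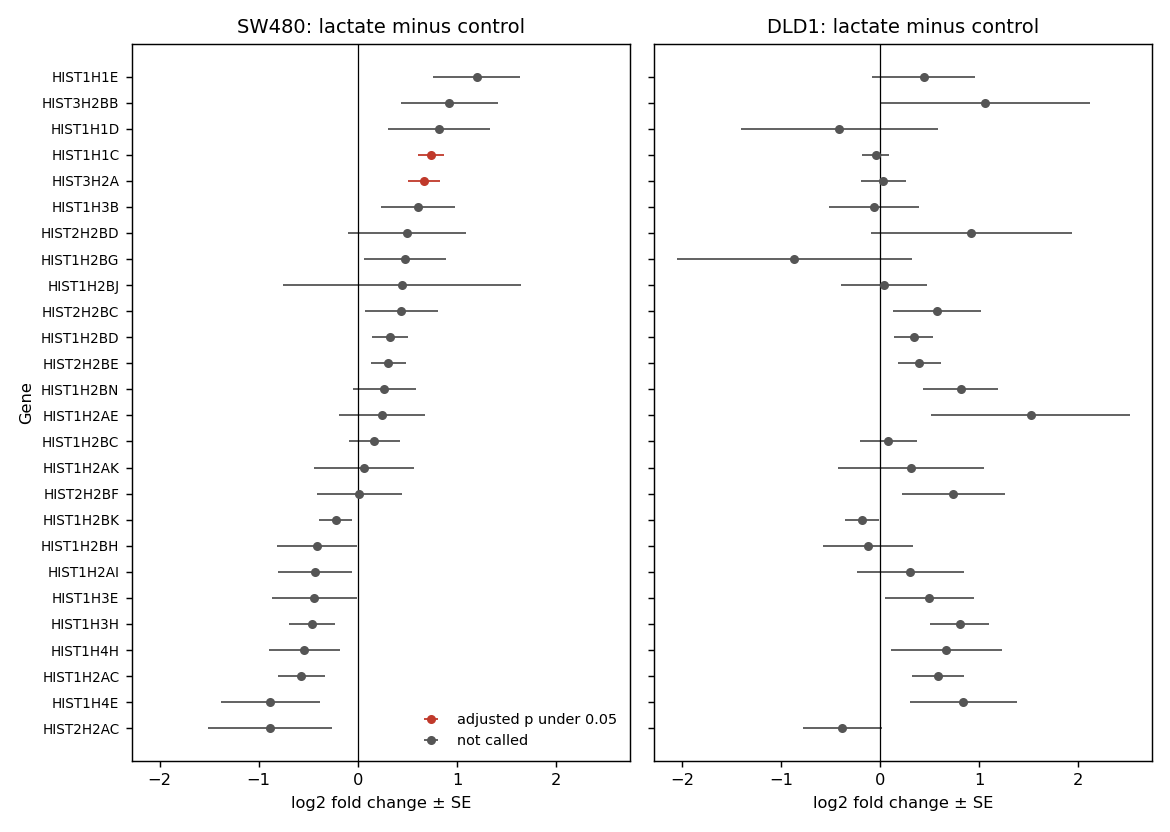
The log2 fold change of lactate against control with its SE (horizontal axis) for the 26 tested histone genes (vertical axis), in SW480 (left) and DLD1 (right). Red marks an adjusted p under 0.05, reached by HIST1H1C and HIST3H2A in SW480.

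Summed over all 76 genes, the histone level was 190, 183 and 193 CPM in SW480 controls and 234, 253 and 204 CPM after lactate. The H1 genes made most of that difference, at 63.1 ± 3.80 CPM in controls and 106 ± 12.3 after lactate (SD, n = 3). Without HIST1H1C and HIST3H2A, the other 74 genes summed to 115 ± 8.10 CPM and 108 ± 11.8 CPM. In DLD1 the sum over all genes was 94.7, 62.3 and 78.5 CPM in controls and 78.5, 78.8 and 78.3 CPM after lactate. The DLD1 lactate libraries lay within the range of the controls.

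In DLD1, 0 of 26 histone genes were called after lactate, while 0.381% of all genes tested were, 0.336% higher and 0.0455% lower. At an unadjusted p under 0.05 there were 3 (HIST1H2AC, HIST1H2BN and HIST1H3H, named after their values were seen), against 18.5% of all genes, and DESeq2 and limma-voom called 0. Groups did not overlap for 3 genes that were higher and 0 that were lower, against 9.82% and 9.03% of all genes. The median log2 fold change was 0.37 over the 26 genes and 0.02 over all genes. HIST1H2BK was called lower only when DLD1 controls 2 and 3 were both left out (log2 -0.51, adjusted p = 0.0435 in edgeR).

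The difference of the lactate effects, DLD1 minus SW480, was called for 0 of 26 histone genes, while 0.728% of all genes were called, 0.324% higher and 0.404% lower. At an unadjusted p under 0.05 there were 5 of 26, against 16.8% of all genes. For HIST1H1C it was -0.78 ± 0.19, with an adjusted p of 0.0677 in edgeR. It was called without DLD1 control 2 (-0.90, adjusted p = 0.00293 in edgeR) and without DLD1 control 3 (0.0252). DESeq2 (0.00273), no filter (0.0067) and removal of the trends along GC content and length (-1.08, adjusted p = 0.000961) also gave a call. Without DLD1 controls 2 and 3 it was -1.02. The HIST1H1C difference was not called in 15 of 21 alternatives, with adjusted p up to 0.205 in edgeR, DESeq2 or limma-voom. For HIST1H2AC it was 1.16 ± 0.36, with an adjusted p of 0.134 in edgeR. It was called with no filter (0.0387) and with those trends removed (0.0415). In 19 of 21 alternatives it was not called, with adjusted p up to 0.309 in edgeR, DESeq2 or limma-voom.

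The TMM-scaled reads of the histone genes summed to less in untreated DLD1 than in untreated SW480, 78.5 ± 16.2 CPM against 189 ± 4.93 (SD, n = 3). HIST1H1C and HIST1H2BK made 57.7 and 124 CPM of these sums. The 50 genes not tested summed to 4.25 ± 1.24 and 5.58 ± 0.41 CPM. If the libraries were selected for poly(A), messages that end in the stem-loop are not measured here. Of the 26 genes, 23 were lower and 2 higher in DLD1 controls, while 70.8% of all genes were called, 37.3% lower and 33.6% higher. A gene could pass the filter through the line where it is high. Of the 10 genes with at least 10 reads in each library of some group in both lines, all 10 were called lower in DLD1. HIST1H3E, 1 of these 10, had overlapping control groups and an adjusted p of 0.0452 in edgeR, and its call was lost in 12 of 21 alternatives, DESeq2 (0.0548) and limma-voom (0.111) among them. Fewer cells that make a transcript and less of it per cell cannot be told apart here.

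Of the genes with reads in both lines, HIST3H2A had a log2 fold change of -2.99 ± 0.20. Others passed the filter only through SW480, so that they had to be lower in DLD1, and are given as levels: HIST1H4H stood at 3.61 ± 1.26 CPM in SW480 controls and 0.285 ± 0.0965 in DLD1 controls (SD, n = 3). HIST1H2AE had 12, 8 and 24 reads in SW480 controls and 2, 0 and 0 in DLD1 controls. HIST1H2BG had 10, 11 and 9 reads against 1, 0 and 1, and HIST3H2BB 10, 6 and 7 against 1, 0 and 1. HIST2H2BD, with under 10 reads in some library of every group, had 8, 5 and 12 against 0, 4 and 0. HIST1H1C had a log2 fold change of -1.56 ± 0.14 and HIST1H2BK of -0.76 ± 0.17. The 2 genes called higher passed only through DLD1, which favoured a higher level there, and are given as levels. HIST1H2BJ stood at 0.0657, 0 and 0.0593 CPM in SW480 controls and 0.83, 0.794 and 0.955 CPM in DLD1 controls. HIST2H2AC stood at 0.197, 0.5 and 0.297 CPM in SW480 controls and 0.977, 0.595 and 1.06 CPM in DLD1 controls. The call of HIST2H2AC was lost without SW480 control 1 or with a replicate block. HIST1H1E was not called.

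**Figure D5:**
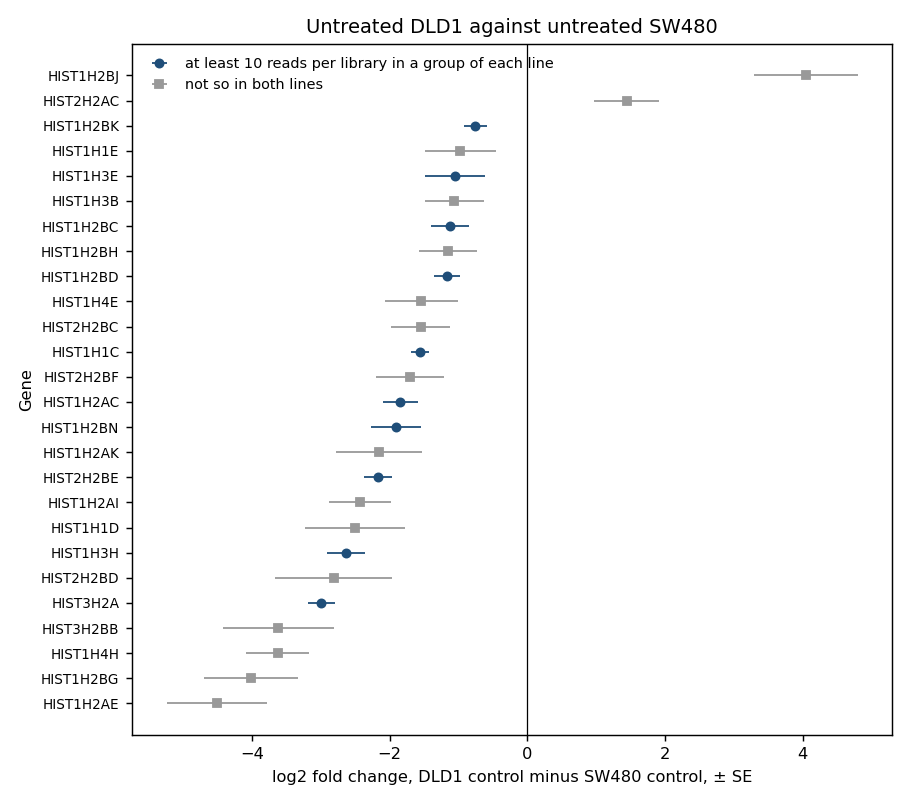
The log2 fold change of DLD1 controls against SW480 controls with its SE (horizontal axis) for the 26 tested histone genes (vertical axis). Blue circles are the 10 genes with at least 10 reads per library in a group of each line, and all 10 lie below 0.

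Genes that act on histone supply were described from lists. Of 38 S-phase genes, 0 rose and 17 fell in SW480 after lactate, with a median log2 fold change of -0.35, while 5.59% of all genes fell. With 1 SW480 library left out, 8 (control 1) to 16 (control 2) fell. MCM3, a subunit of the replicative helicase, went from 114 ± 10.9 to 68.3 ± 2.80 CPM (SD, n = 3; log2 -0.75 ± 0.09). CDC6, which loads that helicase, fell by 0.72 on the log2 scale, and PCNA, the sliding clamp of DNA polymerase, fell by 0.54. In DLD1 controls 37 of the 38 were higher than in SW480 controls, against 33.6% of all genes.

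Of 20 tested histone chaperones, which carry histones to DNA, 0 rose and 6 fell in SW480, with a median of -0.31, while 5.59% of all genes fell. Leaving out SW480 control 1 reduced the 6 to 1, and leaving out control 3 or any 1 lactate library reduced it to 2. NASP went from 95.1 ± 7.70 to 68.4 ± 0.252 CPM and CHAF1A, a subunit of the chromatin assembly factor, from 36.8 ± 3.23 to 24.3 ± 0.383 CPM (SD, n = 3). Of 17 factors of histone messenger RNA synthesis and decay, 1 rose and 0 fell, while 6.83% of all genes rose and 5.59% fell. This list thus had no larger share of called genes than genes at large. The gene that rose, ZCCHC6, a uridylyl transferase, went from 84.5 to 139 CPM. Its adjusted p in edgeR was 0.0123, and it became 0.0621 without SW480 control 1 and 0.0528 without lactate 3. SLBP stood at 99.8 and 85.1 CPM (adjusted p = 0.102 in edgeR). It was called lower when SW480 was fitted alone (0.0164) and without DLD1 control 2 (0.0278). Without DLD1 controls 2 and 3 its log2 difference was -0.23. In 19 of 22 alternatives SLBP was not called, with adjusted p up to 0.372 in edgeR, DESeq2 or limma-voom. NPAT stood at 28.8 and 27.6 CPM (adjusted p = 0.856 in edgeR). In DLD1, 0 genes of these 3 lists were called with all 12 libraries in the fit. Without DLD1 control 3, 2 S-phase genes were called higher and 13 lower, 1 chaperone higher and 7 lower, and 3 factors of histone messenger RNA higher and 6 lower, NPAT among the lower ones (log2 -0.53, adjusted p = 0.0114 in edgeR). The count over all genes rose then from 67 to 3791.

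Replacement histones are also made outside S phase, mostly from polyadenylated messages. Of 12, 2 rose and 1 fell in SW480 after lactate, against 6.83% and 5.59% of all genes. H1F0, which encodes the linker histone H1.0 of slowly dividing cells, stood at 68.3, 87.0 and 71.6 CPM in controls and 123, 146 and 175 CPM after lactate (log2 0.97 ± 0.17, adjusted p = 0.00222 in edgeR). H1FX, another linker histone, had a log2 fold change of 0.75 ± 0.20 (adjusted p = 0.0256 in edgeR), and it was not called without SW480 control 1 (0.143), control 3 (0.0843), lactate 1 (0.0535) or lactate 2 (0.0911). In DLD1 the log2 difference of H1FX was 0.46 ± 0.20 (adjusted p = 0.245 in edgeR). It was called higher there with no filter (0.0218) and without DLD1 control 3 (0.00782). Without DLD1 controls 2 and 3 the log2 difference was 0.49. Adjusted p ran up to 0.52 over the 22 alternatives in edgeR, DESeq2 or limma-voom. H2AFZ, which encodes H2A.Z, fell from 351 ± 32.9 to 234 ± 2.21 CPM (SD, n = 3), and without SW480 control 1 its adjusted p was 0.0635 in edgeR.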

How the data were processed

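RNA of 12 libraries was extracted with TRIzol per the labels. The authors deposited 1 table of whole-number read counts per gene symbol, without normalization, and 0 columns were left unused. The submitters' processing notes name HISAT2 and GRCh38. Not given in the sources used here are the counter, the annotation, the strand setting and the library selection. The analysis used edgeR 4.0.16 (R 4.3.3): filterByExpr by group (17572 genes left), TMM scaling and 1 robust quasi-likelihood model with a mean per group, with Benjamini-Hochberg adjustment over all genes. The SE was obtained by dividing the size of the log2 fold change by the root of the F statistic. The edgeR p-values set a group difference against the spread between libraries, estimated over all groups together. That spread is the one between these libraries only. The scripts were tested on simulated data, in which all groups had the same spread and no trend along GC content. How they do with trends such as those seen here was not tested. Alternatives used other scalings and filters, DESeq2 1.42.0, limma-voom (limma 3.58.1), a replicate block, removal of trends along GC content and length (GC known for 85.6% of tested genes), single lines and left-out libraries. Members, lists and tests were chosen with earlier results of these data known. Named genes were the called ones (the strongest of each list), the 2 most abundant per class, the polyadenylated list, the genes of largest difference between lines and a few fixed ones.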

Additional observations from a re-analysis of the deposited data

How the results depend on the processing

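HIST1H1C kept its call in SW480 under all 22 alternatives, with log2 fold changes from 0.66 to 0.83 and adjusted p-values up to 0.0226 in edgeR, DESeq2 or limma-voom. The count of histone genes called after lactate in SW480 was 2, and 1 to 3 with a library left out. In DLD1 it was 0, also 0 with each library left out, and 1 without DLD1 controls 2 and 3, an alternative chosen after seeing the data. The count for the difference of the effects was 0, but 2 without a filter, 1 with DESeq2, 2 with the trends along GC content and length removed, 1 without DLD1 controls 2 and 3, and 0 to 1 with a library left out. The count between control groups was 25, and 21 to 24 with a library left out. With at least 1 CPM in 3 libraries, where fewer genes were tested, it was 14 of 14 tested. Over all genes, 12448 were called between control groups, and 11598 with that filter. A gene could pass it through SW480 alone, as HIST1H4H did, so the 14 of 14 does not weigh the direction. The summed level changed by a log2 of 0.21 to 0.37 in SW480 and -0.14 to 0.16 in DLD1 with a library left out. Over all genes, the count called in SW480 was 2183, from 689 (without SW480 control 1) to 4800 (trends removed). In DLD1 it was 67, from 1 (line fitted alone) to 3791 (without DLD1 control 3), and for the difference it was 128, from 9 to 1508. Except where stated, the cause was not tested. Whether replicate numbers pair the libraries was left undecided, as 3 libraries per group are too few to tell. Deviations from the group mean in same-numbered libraries had correlations of 0.102, -0.000225 and 0.173 in SW480 and -0.0708, 0.062 and 0.116 in DLD1. Those of different number ran from -0.227 to 0.133 in SW480 and from -0.119 to 0.0639 in DLD1. With the replicate block the counts were 2, 0, 0 and 20. The median histone gene held 32 reads, and the 50 genes with too few reads were not tested for any change.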
